A study of Homo sapiens with 12 samples.

Results

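The nuclear-encoded subunits of the respiratory chain were examined in 2 glioblastoma cell lines, U87 and U118. Cultures of each line were labelled sensitive or resistant to temozolomide (TMZ), an alkylating drug. Members were the protein-coding genes whose symbols name a subunit of complexes I to V, taken by symbol alone and not by any measured value. The rule found 86 of the 58174 genes in the deposited tables, of which 37 belonged to complex I, 4 to complex II, 10 to complex III, 15 to complex IV and 20 to complex V. NDUFA4, which was named as a complex I gene, was counted with complex IV, where its protein is now placed. The 4 groups were U87 sensitive, U87 resistant, U118 sensitive and U118 resistant, with 3 mRNA libraries in each and 12 in all. The study also calls them control cells and aggregation cells. Resistant cells are listed with TMZ at 50 μM, and sensitive cells were the line of the same name without TMZ. In the study, aggregations formed after weeks of TMZ, and whether the sequenced cells were still in it is not said. Both kinds of culture started from cells sorted as CD133- CD15- and grown with serum and BMP2. The aggregations grew out of a small number of surviving cells, and the labels do not say whether the 3 libraries of a group came from separate aggregations, so the p-values measure only the spread between these libraries.

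The respiratory chain passes electrons from NADH and succinate to oxygen through complexes I to IV, and the proton gradient that builds up drives ATP synthesis by complex V. A few core subunits are encoded in mitochondrial DNA. The other subunits, and all of complex II, are encoded in the nucleus and imported, so each complex except the second is assembled from products of both genomes. Complex II, succinate dehydrogenase, also belongs to the TCA cycle. Many glioblastoma cells draw on both glycolysis and oxidative phosphorylation.

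Levels were in TPM, a transcript's share of its library after correction for transcript length. Changes are log2 fold changes of TPM + 1, resistant minus sensitive, a scale that makes changes look smaller where TPM is low. Sequencing depth is unknown because TPM does not retain it. Called genes had a limma adjusted p under 0.05 and moved by 1 or more on the log2 scale, and "rose" and "fell" below are used of genes past the adjusted p alone. Over all genes tested, the median change was -0.245 in U87 and -0.522 in U118 (log2), which changed to -0.0152 and -0.0304 over the same genes when libraries were rescaled by their median ratios. A rise of some transcripts lowers the TPM of the others, so results are given beside these medians and under that scaling.

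Several libraries stood apart. Mitochondrially encoded genes took 12.9% to 16.9% of TPM in U87 sensitive and 22.2% to 23.7% in U87 resistant libraries. In U118 they took 7.42% and 8.55% in sensitive replicates 1 and 2 but 19.7% in replicate 3, and 29.9% and 26.1% in resistant replicates 2 and 3 but 13.2% in replicate 1. All 3 U118 resistant libraries were also nearer to U87 than to U118 sensitive cells. Of 92 genes at 10 TPM or more in every U118 sensitive library and under 0.1 TPM in every U87 library, 62 to 70 were under 0.1 TPM in the U118 resistant libraries. Of 36 genes with the opposite pattern, on in U87 and off in U118 sensitive cells, 32 to 34 reached 1 TPM in the U118 resistant libraries. Among the 82 subunits with data, the U118 resistant mean lay closer to U87 resistant than to U118 sensitive cells for 49, on the log2 scale and across tables that were normalized separately. It lay closer to U87 sensitive than to U118 sensitive cells for 47. The matching share of all genes was not taken. These counts were made after the values were seen. In the U118 comparison, a difference of cell origin and the effect of TMZ selection cannot be told apart. All 3 libraries are alike in this, so no U118 comparison can be given without them. Of the 9 glioma markers checked, GFAP, S100B and SOX2 were under 1 TPM in every library, while the summed level of the list, mostly VIM, was between 4836 and 7778 TPM. The 10 fibroblast markers summed to 1389 to 1746 TPM in U118 sensitive and 301.3 to 673.8 TPM in U118 resistant libraries, and to 240.6 to 243.5 and 459.5 to 546.4 TPM in U87. The 4 leukocyte markers summed to 170.9 to 379.2 TPM over all libraries, nearly all from CD68, while PTPRC, CD14 and CD3E were under 1 TPM throughout. The 3 endothelial markers summed to at most 1.20 TPM, with PECAM1 and CDH5 under 1 TPM throughout. The 5 epithelial markers summed to 1.60 to 2.67 TPM in U118 sensitive and 11.1 to 19.9 TPM in U118 resistant libraries, and to 7.85 to 9.43 and 10.7 to 12.4 TPM in U87. The part of these differences in the results was not tested. In a bulk library, fewer cells with an RNA and less RNA per cell cannot be told apart.

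As a share of the library, the 86 subunits were lower in resistant than in sensitive libraries in U87 and higher in U118. In U87 they held 1.86%, 1.95% and 1.80% of TPM in the sensitive libraries and 1.69%, 1.74% and 1.65% in the resistant ones. In U118 the shares were 1.73%, 1.65% and 1.17% against 2.28%, 1.80% and 1.92%. The groups did not overlap in either line. Among nuclear genes only, however, the U87 shares of 2.16% to 2.24% and 2.16% to 2.27% overlapped, while in U118 the shares of 1.46% to 1.87% in sensitive and 2.57% to 2.62% in resistant libraries stayed apart. In U87 the share of the whole library therefore moved with the mitochondrially encoded share.

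**Figure D1:**
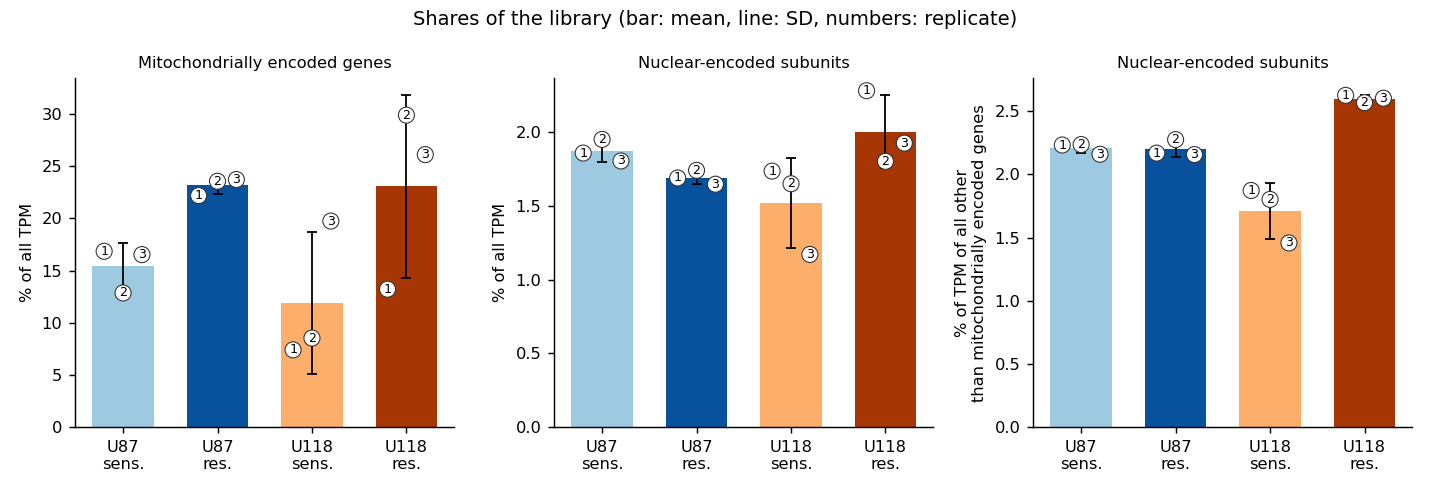
The plot of library shares shows, for the 4 groups (sens., sensitive; res., resistant), the percentage of TPM held by mitochondrially encoded genes (left), by the nuclear-encoded subunits (middle), and by the subunits among all other than mitochondrially encoded genes (right). Bars are means, lines SDs over 3 libraries and numbered circles single replicates; on the right the U118 resistant libraries lie at 2.57% to 2.62%, above all others.

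In U87, few subunits changed by a large amount. Of the 82 tested, 0 were called higher and 3 lower (NDUFB5, SDHD and ATP5MG), 3.66% of the members against 7.79% of all genes called lower and 3.03% called higher. At the adjusted p alone 10 rose and 26 fell, or 12.2% and 31.7%, near the 9.43% and 29.7% of all 13845 genes tested. Their median log2 fold change was -0.12, and the complexes differed: 0.00 for complex I, -0.68 for II, 0.23 for III, -0.04 for IV and -0.29 for V. The median of complex IV was 0.22 with median-ratio scaling, and that of complex I lay on either side of 0 with 1 library left out. With median-ratio scaling 1 member (NDUFA13) was called higher and 0 lower, beside 4.79% and 3.92% of all genes, and 20 rose and 8 fell, against 15.9% and 17.1% of all genes. The direction in U87 therefore depended on the scaling for many members, and 2 of the 26 that fell, UQCRFS1 and ATP5F1B, had values of 0.00 and 0.05 under it. In 18 members all resistant libraries lay above all sensitive ones and in 32 below, beside 13.6% and 39.8% of all genes.

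In U118, 52 subunits had positive and 30 negative values, while 11074 of all 15527 genes tested had negative ones. With median-ratio scaling 73 subunits had positive and 9 negative values, and over all genes these counts were 7352 and 7825. Of the 82 subunits tested, 8 were called higher and 3 lower. The share of members called higher, 9.76%, was near the 8.64% of all genes, and the share called lower, 3.66%, was below the 26.6% of all genes. At the adjusted p alone 18 rose and 6 fell, beside 12.2% and 39.1% of all 15527 genes. The median was 0.25, or 0.77 above that of all genes, and the complexes stood at 0.12 (I), -0.48 (II), 0.28 (III), 0.60 (IV) and 0.22 (V). The median of complex I was -0.11 without U118 sensitive replicate 3 and -0.0446 without resistant replicate 1, and that of complex II was 0.0737 with median-ratio scaling. The median of all genes was -0.48 without U118 sensitive replicate 3 and -0.76 without resistant replicate 1, so complex I stayed above it in both fits. With median-ratio scaling 31 were called higher and 2 lower (15.2% and 12.9% of all genes), and 51 rose and 2 fell (24.3% and 24.5% of all genes). In 25 members all resistant libraries lay above all sensitive ones and in 7 below, beside 15.7% and 42.9% of all genes. With no filter on low values 0 were called lower (limma, adjusted p = 0.0665 for SDHD, 0.0503 for NDUFS1 and 0.0971 for NDUFC2). The counts moved with the library left out. Without U118 sensitive replicate 3 the called members were 3 higher and 2 lower, and without U118 sensitive replicate 1 they were 12 and 2. They were 7 and 4 without U118 resistant replicate 1, and 6 and 2 without U118 resistant replicate 3. Without both U118 sensitive replicate 3 and U118 resistant replicate 1 they were 2 and 6. The share of all genes called was not taken in these fits.

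**Figure D2:**
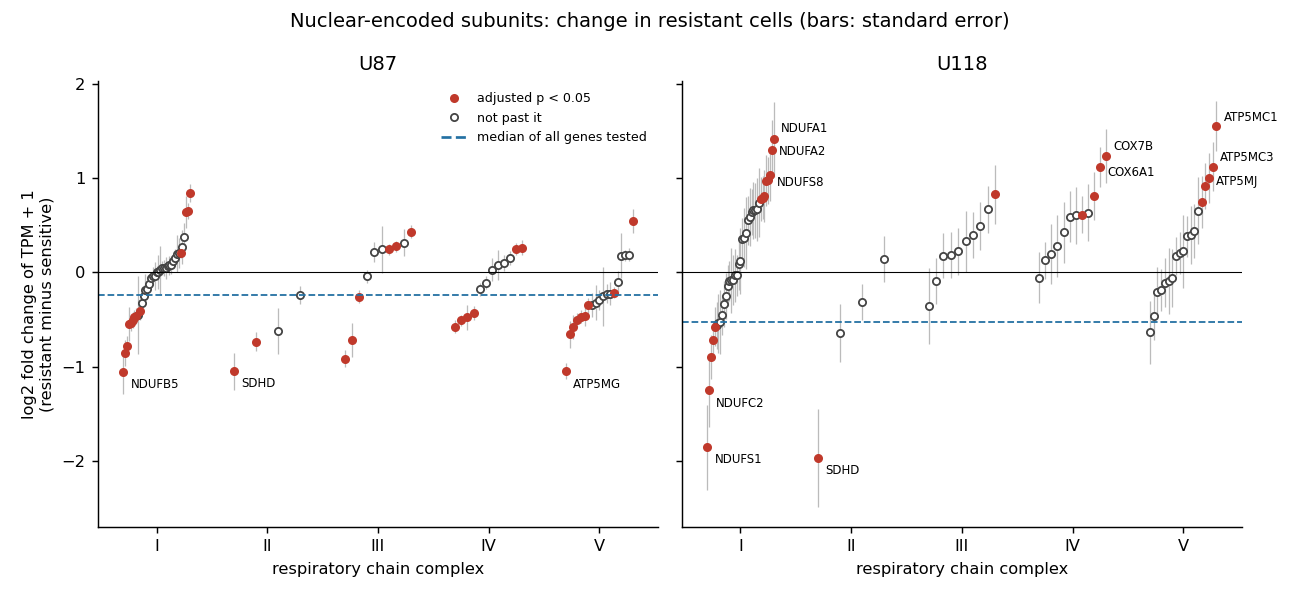
The plot of changes by complex shows the log2 fold change of TPM + 1 (resistant minus sensitive) of each of the 82 tested members, ordered within its complex, in U87 (left) and U118 (right), with standard errors as bars. Red points are past an adjusted p of 0.05, the dashed line is the median of all genes (-0.245 and -0.522), and the called members are named; in U118 most members lie above the dashed line.

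Complex II had the lowest median of the complexes in both cell lines. Relative to the median of all genes it stood at -0.43 in U87 but at 0.04 in U118, so in U118 it was near the typical gene. Its 4 genes are SDHA, the flavoprotein that oxidizes succinate, SDHB, the iron-sulfur subunit, and SDHC and SDHD, which anchor the enzyme in the inner membrane and bind quinone. SDHD (ENSG00000204370, chromosome 11, 112086773 to 112120013 on GRCh38 with GENCODE release 29, as for all gene positions here) was the one member lower in both lines at the adjusted p, beside 10.1% of the 13217 genes tested in both. In U87 it was at 52.4, 88.2 and 66.8 TPM in sensitive and 28.9, 30.9 and 37.4 TPM in resistant libraries. All resistant values were below all sensitive ones, and the log2 fold change was -1.05 (standard error 0.20, adjusted p = 0.00617), or -0.79 with median-ratio scaling (adjusted p = 0.00644). Without U87 sensitive replicate 2 or resistant replicate 1 it was -0.86 and -0.97, with an adjusted p of at most 0.0278. In U118 the sensitive libraries were close together, at 154.7, 147.5 and 145.7 TPM. The resistant libraries were at 103.9, 22.8 and 21.8 TPM, so replicate 1 fell far less than the other two. The log2 fold change was -1.97 (standard error 0.52, adjusted p = 0.0119), or -1.42 with median-ratio scaling. It was -1.98 (adjusted p = 0.0523) without U118 sensitive replicate 3 and -2.69 without U118 resistant replicate 1. The change of SDHD in U118 minus that in U87 was -0.92 (adjusted p = 0.281), and -1.65 (adjusted p = 0.000329) without U118 resistant replicate 1.

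SDHA fell in U87, from 201.0, 178.1 and 187.7 TPM to 114.8, 126.4 and 99.7 TPM, for a log2 fold change of -0.73 (standard error 0.10, adjusted p = 0.00184). In U118 its values of 146.3, 155.8 and 144.5 against 131.1, 118.9 and 109.1 TPM did not overlap, and the log2 fold change of -0.32 was not past the test (adjusted p = 0.188). SDHB had log2 fold changes of -0.24 in U87 and 0.15 in U118 and SDHC of -0.62 and -0.64, none past the test. With 1 library left out, SDHC reached an adjusted p of 0.0268 without U87 sensitive replicate 2, 0.0368 without U87 resistant replicate 2 and 0.0455 without U118 sensitive replicate 3, and SDHB reached 0.0114 without U87 sensitive replicate 1. The makeup of complex II transcripts also differed between groups. SDHD was 25.9% ± 1.24 of the summed SDH TPM in U118 sensitive and 9.60% ± 6.59 in U118 resistant libraries, and 13.7% ± 3.13 and 9.51% ± 1.66 in U87 (SD, n = 3 each). The groups did not overlap in U118 but did in U87. SDHA was 37.8% ± 4.01 and 33.1% ± 2.35 in U87 and 25.9% ± 1.96 and 27.0% ± 4.94 in U118, and overlapped in both lines. Over the same groups SDHB went from 39.0% ± 0.346 to 55.7% ± 2.02 in U118 and from 39.7% ± 2.76 to 49.1% ± 2.72 in U87. The lowest resistant SDHB share was above the highest sensitive one in both lines, at 53.4% against 39.3% in U118 and 46.2% against 41.8% in U87. Since these are shares within a library, they do not move with its scaling. Of the 4 complex II assembly factors, SDHAF4, which acts on SDHA, fell by 0.82 in U87 and by 0.66 in U118 on the log2 scale (adjusted p = 0.0211 and 0.0453). With median-ratio scaling its values were -0.60 and -0.22 and passed the test in neither line (adjusted p = 0.0610 and 0.372), and with 1 library left out the adjusted p reached 0.0515 and 0.160.

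**Figure D3:**
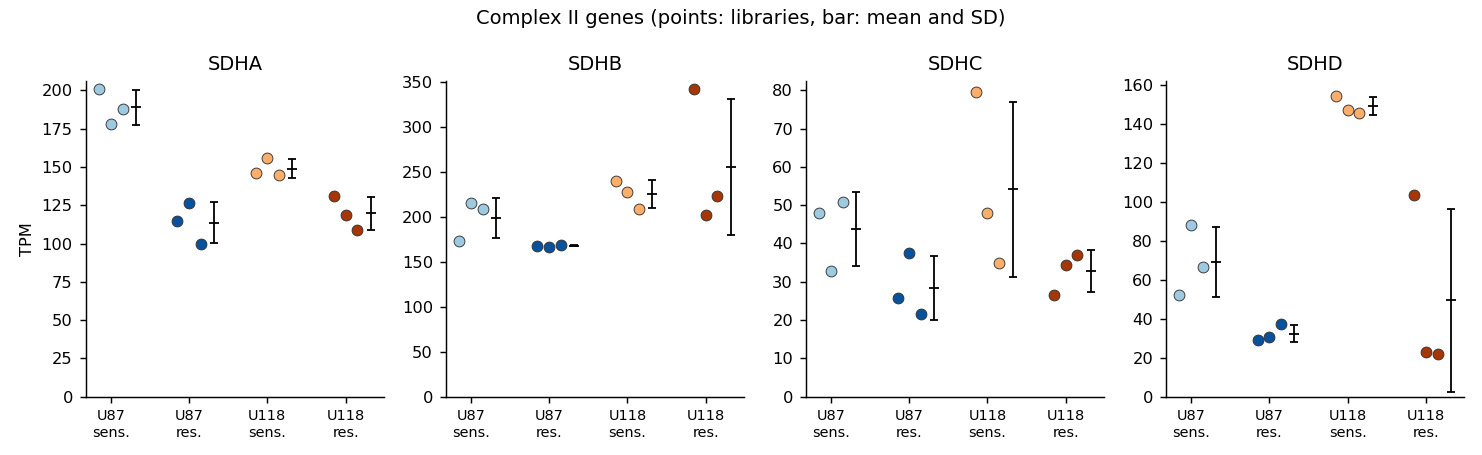
The plot of complex II genes shows TPM of SDHA, SDHB, SDHC and SDHD in each library (points) with the group mean and SD (bars) for the 4 groups. SDHD was at 145.7 to 154.7 TPM in U118 sensitive libraries and at 21.8 to 103.9 TPM in resistant ones, where 1 of the 3 points stands above the others.

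The sequence before the SDHD start is shown because SDHD was the one member that fell in both lines. The window, chr11:112086623-112086922 on the + strand of GRCh38.p14 (RefSeq), runs from 250 bases before to 50 bases after the RefSeq start. Capitals mark a match to the NRF1 motif (GCGCA and GCGC, 1 base apart) and one to the ETS motif CCGGAAG on the opposite strand, read here as its reverse complement.
SDHD: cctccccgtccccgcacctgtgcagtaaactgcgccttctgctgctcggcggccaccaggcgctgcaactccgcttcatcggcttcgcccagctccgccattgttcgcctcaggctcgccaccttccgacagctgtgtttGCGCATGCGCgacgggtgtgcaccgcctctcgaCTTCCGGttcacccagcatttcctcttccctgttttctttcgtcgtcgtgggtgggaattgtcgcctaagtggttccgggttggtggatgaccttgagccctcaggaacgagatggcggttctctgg
NRF1 and the ETS-family factor GABP are known regulators of respiratory chain genes. Of 67 members with a promoter window in the RefSeq table, 16 (23.9%) held the NRF1 motif and 21 (31.3%) the ETS motif on either strand. Among all 27305 genes with a window these shares were 6.98% and 12.2%. The motif of YY1, AAGATGGCG, stood in 9 members (13.4%) and in 2.14% of all genes, and the CCAAT box in 24 (35.8%) and 39.7%. A match describes the letters of the window and does not show a bound site. Motifs were chosen after the changes were known.

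Complex I, the entry point for electrons from NADH, held members that moved both ways. In U87, 4 of its 37 genes rose, 9 fell and 1 was called, while of all genes tested 9.43% rose and 29.7% fell. The called gene, NDUFB5 (chromosome 3, 179604690 to 179627647), encodes a membrane-arm subunit. It was at 54.0, 71.2 and 38.8 TPM in sensitive and 20.3, 27.2 and 28.2 TPM in resistant libraries, a log2 fold change of -1.06 (standard error 0.23, adjusted p = 0.0114). Without U87 sensitive replicate 2 or resistant replicate 1 the value was -0.85 and -0.91, so that the gene was no longer called, and the adjusted p stayed at or below 0.0420 in all 6 fits with 1 library left out. NDUFC1 and NDUFB4, also of the membrane arm, fell by 0.86 and 0.78 on the log2 scale. NDUFC1 went from 106.9, 117.4 and 124.0 TPM to 64.8, 74.9 and 52.8 TPM, and NDUFB4 from 147.2, 138.0 and 118.6 TPM to 74.0, 73.5 and 85.2 TPM. For both, the groups were well apart.

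The largest rise in U87 was that of NDUFA13, an accessory subunit also known for a role in cell death. It was at 67.3, 81.2 and 83.4 TPM in sensitive and 142.6, 135.7 and 137.9 TPM in resistant libraries, a log2 fold change of 0.84 (standard error 0.10, adjusted p = 0.000861). An overlapping coding gene on the same strand averaged 42.2 TPM, so the split of reads between them is uncertain. NDUFB6 rose from 38.5, 42.7 and 41.5 TPM to 62.4, 64.2 and 67.4 TPM, by 0.65, and NDUFB9 rose by 0.64 (adjusted p = 0.00128 and 0.0231). NDUFB9 was not past the threshold without U87 sensitive replicate 1 (adjusted p = 0.0563).

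In U118, 8 complex I genes rose and 5 fell, while of all genes tested 12.2% rose and 39.1% fell. NDUFS1 (chromosome 2, 206114817 to 206159603), the large iron-sulfur subunit of the NADH-oxidizing module, fell from 89.1, 81.5 and 60.6 TPM to 40.4, 9.01 and 22.4 TPM. All resistant values were lower, with a log2 fold change of -1.85 (standard error 0.45, adjusted p = 0.00851). NDUFC2, a membrane-arm subunit on chromosome 11 (78068304 to 78080219), had values of 159.5, 123.7 and 71.1 against 78.3, 30.4 and 42.0 TPM, which overlapped. Its log2 fold change of -1.25 (standard error 0.39, adjusted p = 0.0252) was not past the threshold in 4 of the 6 fits with 1 library left out, without U118 sensitive replicates 1 or 2 or resistant replicates 2 or 3 (highest adjusted p = 0.0795), or with median-ratio scaling (-0.70, adjusted p = 0.0820). It overlaps the read-through gene NDUFC2-KCTD14 on the same strand, which averaged 2.13 TPM. NDUFA10 fell by 0.90, from 41.5, 44.2 and 42.5 TPM to 28.6, 17.1 and 23.1 TPM (adjusted p = 0.0118). Without U118 sensitive replicate 2 or resistant replicate 2 the adjusted p of NDUFA10 was 0.0515 and 0.0541, and with median-ratio scaling its value was -0.36 (adjusted p = 0.106).

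The complex I genes called higher in U118 were NDUFA1, NDUFA2 and NDUFS8. NDUFA1 on the X chromosome, a small subunit needed for assembly, went from 78.6, 73.0 and 31.2 TPM to 236.7, 109.3 and 134.6 TPM, for a log2 fold change of 1.41 (standard error 0.40, adjusted p = 0.0166). Without U118 sensitive replicate 3 it was 0.99 (adjusted p = 0.0561). NDUFA2 went from 97.4, 84.6 and 44.2 TPM to 216.6, 141.5 and 183.4 TPM, by 1.30 (adjusted p = 0.00828). NDUFS8, which carries iron-sulfur clusters near the quinone site, went from 194.1, 187.3 and 115.9 TPM to 259.7, 394.7 and 354.1 TPM, by 1.03 (adjusted p = 0.0120). For NDUFA2 and NDUFS8 the adjusted p stayed under the threshold in all 6 fits that left out 1 U118 library (highest 0.0222 and 0.0441), but without U118 sensitive replicate 3 their values were 0.96 and 0.79, so neither was called. NDUFS8 was also not called without U118 resistant replicates 2 or 3. NDUFAB1, the mitochondrial acyl carrier protein that is also a complex I subunit, had log2 fold changes of -0.18 in U87 and -0.08 in U118, neither past the test (adjusted p = 0.0643 and 0.851).

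Complex III, which hands electrons from quinol to cytochrome c, had no called member in either line. In U87, UQCRC1, CYC1 and UQCRFS1 fell and UQCR11, UQCRQ and UQCRH rose. No other of the 10 members was past the adjusted p there, and all but UQCRH were named after their values were seen. UQCRC1, a core subunit, went from 479.0, 446.6 and 396.4 TPM to 220.8, 232.4 and 245.5 TPM, for a log2 fold change of -0.91 (standard error 0.09, adjusted p = 0.000401). CYC1, which encodes cytochrome c1, was at 475.6, 303.0 and 291.8 TPM and then at 213.6, 220.9 and 200.6 TPM, by -0.71 (adjusted p = 0.0205). Its adjusted p reached 0.0678 with 1 library left out and was 0.151 with median-ratio scaling. In U118, UQCRC1 and CYC1 had log2 fold changes of 0.19 and 0.40, not past the test, and only UQCRQ rose, by 0.83 (adjusted p = 0.04998, and up to 0.116 with 1 library left out), from 274.3, 240.2 and 127.9 TPM to 455.6, 316.7 and 329.7 TPM. UQCRQ was the one member that rose in both lines (0.27 in U87, adjusted p = 0.0107), beside 2.62% of genes tested in both. UQCRH, the hinge protein, had means of 390.7 ± 6.15 TPM in U87 sensitive and 463.2 ± 23.8 TPM in U87 resistant libraries (SD, n = 3 each). It rose by 0.24 (adjusted p = 0.0189, and 0.0537 to 0.0635 without U87 sensitive replicate 3 or resistant replicates 1 or 2), and had a log2 fold change of 0.33 in U118. UQCRHL, a near-identical copy whose reads can be confused with it, was between 2.38 and 4.53 TPM in all libraries, with log2 fold changes of 0.31 and 0.18 that were not past the test.

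Complex IV, cytochrome c oxidase, passes the electrons to oxygen. In U87, COX4I1, COX5A, COX7B and COX7A2L fell, and COX7A2 and COX6B1 rose. COX4I1 had the largest fall, from 202.4, 197.4 and 208.7 TPM to 139.5, 139.2 and 128.8 TPM, for a log2 fold change of -0.58 (standard error 0.07, adjusted p = 0.000848). COX5A went from 397.2, 383.5 and 368.5 TPM to 261.9, 263.1 and 281.1 TPM, by -0.51. COX7B fell by 0.48 (adjusted p = 0.0259), up to an adjusted p of 0.0864 without U87 resistant replicate 3. With median-ratio scaling the falls of these 4 genes, from -0.17 to -0.31, were not past the threshold, and 0 complex IV genes fell. COX7A2 and COX6B1 rose by 0.26 and 0.25 (adjusted p = 0.0390 and 0.0177), and leaving out 1 library raised these as far as 0.113 and 0.0647. COX5B had a value of 0.15 that was not past the test.

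In U118, 11 of the 12 tested complex IV genes had positive values, 4 of them past the adjusted p, and 2 were called. Of all 15527 genes tested, 4453 had positive values, 12.2% rose and 8.64% were called higher. COX6A1 (chromosome 12, 120438090 to 120440742), the widely expressed form of subunit 6A, rose in all resistant libraries. It stood at 681.8, 691.6 and 653.7 TPM in sensitive and 1343, 1481 and 1588 TPM in resistant libraries, a log2 fold change of 1.12 (standard error 0.21, adjusted p = 0.00219). Its sensitive libraries lay close together, including the third, and the value ranged from 1.06 to 1.18 with 1 library left out. COX7B on the X chromosome rose from 43.0, 48.7 and 35.4 TPM to 151.0, 77.0 and 86.7 TPM, by 1.24 (adjusted p = 0.00634), and by 0.94 without U118 resistant replicate 1, where it was not called. COX8A went from 934.9, 889.9 and 573.7 TPM to 1315, 1370 and 1433 TPM, by 0.81 (adjusted p = 0.0249). Its adjusted p was 0.0551 to 0.0981 without U118 sensitive replicate 2 or resistant replicates 2 or 3. COX5A rose by 0.61 (adjusted p = 0.0276), but was not past the threshold without U118 sensitive replicates 1 or 2 or resistant replicates 2 or 3 (adjusted p = 0.0747 to 0.160), and COX4I1 had a value of 0.59 (adjusted p = 0.0967) with groups that did not overlap. COX7A2, COX7A2L and NDUFA4 had the lowest values there, -0.05, 0.13 and 0.20, and did not pass the test. NDUFA4 was also not past it in U87 (0.10, adjusted p = 0.416).

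The tissue-restricted forms of complex IV were close to absent. COX4I2, a hypoxia-responsive form of subunit 4, was listed at 0 TPM in all 12 libraries, and COX6A2 and COX7A1, the muscle forms, were at most 0.305 and 0.585 TPM. Together with ATP5MGL, these were the 4 members that did not reach the filter of 1 TPM in 3 libraries. The common forms COX4I1, COX6A1 and COX7A2 were all above 100 TPM in every library.

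Complex V is the ATP synthase. In U87, 8 of 19 tested members fell and 1 rose, while of all genes tested 29.7% fell and 9.43% rose. ATP5MG (chromosome 11, 118401154 to 118431496), which encodes subunit g of the membrane part, fell from 87.3, 95.3 and 88.1 TPM to 44.0, 45.5 and 39.8 TPM, for a log2 fold change of -1.05 (standard error 0.09, adjusted p = 0.000232). The group means differed by far more than their SDs (4.38 and 2.95 TPM), and with median-ratio scaling the value was -0.79 (adjusted p = 0.00155). ATP5F1C and ATP5F1A, the gamma and alpha subunits of the catalytic head, fell by 0.66 and 0.58 (adjusted p = 0.0113 and 0.0108). ATP5F1C went from 192.1, 289.7 and 227.0 TPM to 148.6, 142.6 and 151.6 TPM, and ATP5F1A from 254.1, 338.3 and 345.0 TPM to 206.2, 194.4 and 218.8 TPM. With median-ratio scaling ATP5F1A had -0.32 (adjusted p = 0.0709). ATP5MC1 and ATP5MC3, which encode the c subunit, fell by 0.50 and 0.47 (adjusted p = 0.00236 and 0.00924). ATP5MC1 went from 332.8, 311.5 and 297.3 TPM to 229.2, 228.3 and 206.8 TPM, and its value with median-ratio scaling was -0.24 (adjusted p = 0.188). ATP5F1E, the epsilon subunit, was the one that rose, from 67.3, 94.5 and 73.3 TPM to 113.5, 115.8 and 112.5 TPM, by 0.55 (adjusted p = 0.0142). That rise was not past the threshold without U87 sensitive replicate 3 or resistant replicate 2 (adjusted p = 0.0540 and 0.0513). ATP5PD and ATP5PF, of the peripheral stalk, had values of 0.19 and 0.18, not past the test.

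In U118, 5 complex V members rose and 0 fell, while of all genes tested 12.2% rose and 39.1% fell. ATP5MC1 (chromosome 17, 48892765 to 48895871), 1 of 3 genes for the c subunit of the rotating ring, had the largest rise of all 82 members. It stood at 144.8, 134.1 and 85.4 TPM in sensitive and 435.6, 299.2 and 325.0 TPM in resistant libraries, a log2 fold change of 1.55 (standard error 0.26, adjusted p = 0.00137). ATP5MC3 went from 85.5, 89.0 and 51.5 TPM to 183.5, 135.6 and 165.3 TPM, by 1.12 (adjusted p = 0.00684). ATP5MC2 had values of 370.8, 347.4 and 258.4 against 410.0, 392.3 and 458.8 TPM, which did not overlap but gave 0.38, not past the test (adjusted p = 0.172). With median-ratio scaling ATP5MC2 also rose (0.94, adjusted p = 0.0180). ATP5MJ, a small subunit of the membrane part, rose by 1.00 (adjusted p = 0.0117). ATP5MC3 (0.87) and ATP5MJ (0.80) were not called without U118 sensitive replicate 3, nor was ATP5MJ without U118 resistant replicates 1 or 3, while both stayed past the adjusted p. ATP5IF1, the inhibitor that holds back ATP hydrolysis, was at 164.8, 173.3 and 154.9 TPM and then at 418.0, 209.8 and 239.5 TPM. Its log2 fold change of 0.75 (adjusted p = 0.0467) was not past the threshold in 4 of the 6 fits with 1 library left out, those without U118 sensitive replicates 1, 2 or 3 or resistant replicate 3. In U87 ATP5IF1 had a value of -0.29 (adjusted p = 0.0651).

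The 3 c-subunit genes encode the same mature protein behind different import sequences, so their shares tell which gene supplied the transcript. ATP5MC1 made up 23.1% ± 1.30 of their summed TPM in U118 sensitive and 37.6% ± 4.23 in U118 resistant libraries (SD, n = 3 each), with all resistant shares (34.2% to 42.3%) above all sensitive ones (21.6% to 24.1%). ATP5MC2 went from 62.6% ± 2.38 to 45.2% ± 4.67. In U87 the ATP5MC1 share was 34.5% ± 1.28 and 31.2% ± 2.81, which overlapped. The U118 resistant shares were thus near those of U87 cells, on a measure that does not depend on how each table was scaled. The ATP5MC1 window is shown because this gene had the largest rise among the members in U118; capitals mark 4 CCAAT boxes on the printed strand, and the window, chr17:48892537-48892836 (+, GRCh38.p14, RefSeq), held no match to the NRF1, ETS or YY1 letters.
ATP5MC1: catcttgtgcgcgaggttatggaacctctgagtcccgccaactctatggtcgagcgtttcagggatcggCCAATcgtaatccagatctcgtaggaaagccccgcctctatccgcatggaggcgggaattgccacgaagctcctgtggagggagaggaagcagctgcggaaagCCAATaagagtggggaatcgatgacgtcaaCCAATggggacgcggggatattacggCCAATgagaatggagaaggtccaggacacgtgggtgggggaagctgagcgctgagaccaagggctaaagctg

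Whether the subunits changed differently in the cell lines was tested with the interaction of line and phenotype over all 12 libraries. At an adjusted p under 0.05 the change was higher in U118 for 27 members and lower for 7, or 32.9% and 8.54% of the members, beside 15.5% and 22.6% of all 16382 genes. With median-ratio scaling these were 41 and 3, beside 22.6% and 19.8% of all genes. The 3 largest differences upward were those of ATP5MC1 (2.05, standard error 0.28, adjusted p = 9.76e-05), NDUFA1 (1.87, standard error 0.46, adjusted p = 0.00672) and COX7B (1.71, standard error 0.33, adjusted p = 0.00127). Among members past the adjusted p, the 3 largest downward were those of NDUFC2 (-1.52, adjusted p = 0.0266), ATP5F1E (-1.18, adjusted p = 0.0312) and NDUFA13 (-1.17, adjusted p = 0.00350). NDUFC2 was not past the threshold without U87 sensitive replicate 1, U87 resistant replicates 1 or 2, U118 sensitive replicates 1 or 2, or U118 resistant replicates 2 or 3. ATP5F1E was past it in 3 of the 12 fits with 1 library left out (without U87 sensitive replicate 2, U118 sensitive replicate 3 or U118 resistant replicate 1), and reached an adjusted p of 0.0797 in the others. NDUFA13 had an adjusted p of 0.0873 with median-ratio scaling. Of the 82 members, 6 fell in U87 and rose in U118 (ATP5MC1, ATP5MC3, ATP5MJ, COX5A, COX7B and NDUFA1), beside 4.13% of genes tested in both, and 0 went the other way, beside 2.42%. With median-ratio scaling only ATP5F1C had that pattern, beside 4.65% of genes, and 12 members rose in both lines, beside 6.17%, so the fall in U87 of the 6 depended on the scaling while their rise in U118 did not.

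**Figure D4:**
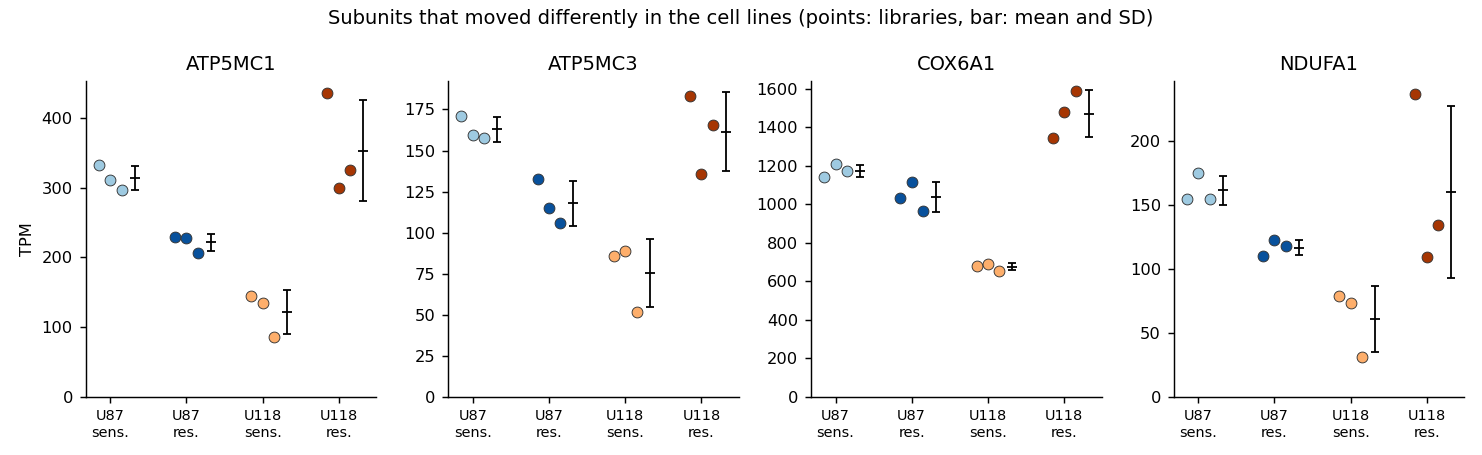
The plot of 4 subunits shows TPM of ATP5MC1, ATP5MC3, COX6A1 and NDUFA1 in each library (points) with group mean and SD (bars), each panel with its own axis from 0. The lines' tables were normalized separately. ATP5MC1 lies at 85.4 to 144.8 TPM in U118 sensitive and at 299.2 to 435.6 TPM in U118 resistant libraries.

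All 13 subunits encoded in mitochondrial DNA rose in U87, by 0.40 (MT-CO1) to 0.94 (MT-ATP8), and in U118 all 13 had positive values, of which MT-ND1 (2.10, adjusted p = 0.0160) and MT-ND2 (1.84, adjusted p = 0.0312) passed the test. With 1 U118 library left out, their adjusted p reached 0.0591 and 0.102. In U87, 6 of the 13 (MT-ND3, MT-ND5, MT-ND6, MT-CO1, MT-CO2 and MT-ATP8) were not past the threshold in at least 1 fit with a library left out (highest adjusted p = 0.1198, for MT-ND5). The ratio of mitochondrially to nuclear-encoded TPM over the complexes was 7.60, 5.30 and 7.60 in U87 sensitive and 11.1, 11.5 and 12.4 in U87 resistant libraries, which did not overlap. In U118 it was 3.77, 4.63 and 15.5 against 4.13, 14.6 and 11.7, and the groups overlapped through sensitive replicate 3 and resistant replicate 1.

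The other genes of the pathway were described from lists, beside the percentages of all genes given for each line. Of 53 assembly factors, 1 rose and 22 fell in U87 and 4 rose and 16 fell in U118. With median-ratio scaling these were 4 and 13 in U87 and 11 and 7 in U118, so the balance in U118 turned. FOXRED1, needed to assemble complex I, fell by 1.23 in U87 and 1.42 in U118 (adjusted p = 0.000205 and 0.00430), and FMC1, which helps to assemble ATP synthase, had -0.80 in U87 and 2.05 in U118 (adjusted p = 0.00243 and 0.000780); both were picked out after their values were seen. Of 15 regulators of mitochondrial biogenesis, 9 fell and 0 rose in U87, and 2 fell and 1 rose in U118. With median-ratio scaling 5 fell in U87, and 3 rose and 1 fell in U118. NRF1, ESRRA and TFAM, which drive transcription of nuclear or mitochondrial respiratory genes, fell in U87 by 0.77, 0.87 and 0.83 on the log2 scale (adjusted p = 0.00442, 0.00973 and 0.0321). With median-ratio scaling ESRRA was not past the threshold in U87 (adjusted p = 0.0516), and with 1 library left out the adjusted p of TFAM reached 0.0971. In U118 they had values of -0.55, 0.69 and -0.81, not past the test. The coactivator PPARGC1A was low, at 0.677 to 3.43 TPM, and not past the test in either line. Of 13 TCA cycle genes, 9 fell and 0 rose in U87, and 4 fell and 1 rose in U118, or 6 and 0 in U87 and 3 and 5 in U118 with median-ratio scaling. Of 15 import and carrier genes, 8 fell in U87 and 2 in U118, and with median-ratio scaling 4 fell in U87, and 1 fell and 6 rose in U118. Of 7 electron carriers and other quinone reductases 2 fell and 1 rose in U87 and 1 of each in U118, or 1 fell and 2 rose in U87 and 0 fell and 2 rose in U118 with median-ratio scaling.

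The hypoxia-responsive respiratory genes did not move as a group. NDUFA4L2, which can take the place of NDUFA4 under hypoxia, was at 8.06 to 8.83 TPM in U87 sensitive and 5.74 to 6.54 TPM in U87 resistant libraries, and at 2.71 to 3.39 and 1.73 to 2.39 TPM in U118. Its log2 fold changes of -0.39 and -0.41 were not past the test. HIGD1A, a complex IV-associated factor, fell by 1.45 in U87 (adjusted p = 0.00489) and had -0.28 in U118. LONP1, a matrix protease, fell in U87 by 0.57 and rose by 0.66 in U118 cells (adjusted p = 0.000678 and 0.0423). With median-ratio scaling the U87 value of LONP1 was -0.31 (adjusted p = 0.0837), and with 1 U118 library left out its adjusted p there reached 0.165. BNIP3 and BNIP3L, receptors for the removal of mitochondria, fell in U118 by 1.04 and 1.54 (adjusted p = 0.0140, up to 0.0532 with 1 library left out, and 0.00293), while in U87 BNIP3L rose by 0.98 (adjusted p = 0.0102). BNIP3 in U87 and PDK1 in both lines, a kinase that shuts pyruvate out of the TCA cycle, were not past the test (-0.07 for BNIP3, 0.09 and -0.93 for PDK1).

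Genes next to some of the members that fell were also lower, as were genes next to some members that did not fall. For each member, the median log2 fold change of the other tested genes within 2 Mb was taken, a comparison chosen after the values were seen. In U87 the 3 called members had neighbour medians of -0.95 (NDUFB5, 11 genes), -0.85 (SDHD, 19 genes) and -0.82 (ATP5MG, 47 genes), against -0.245 for all genes. Around SDHD, 17 of the 19 neighbours had negative values, and around ATP5MG 45 of 47. In U118 the neighbour median was -1.35 for SDHD (20 genes, 19 negative, 14 called lower) and -1.14 for NDUFC2 (26 genes, 21 negative), but -0.53 for NDUFS1, next to the -0.522 of all genes. The 8 members called higher in U118 had neighbour medians from -0.50 to 0.54, and ATP5MC1 had 0.03 over 65 genes, 31 of them negative. Whole chromosomes differed as well. In U87 all 3 members on chromosome 3 (NDUFB5, NDUFB4 and UQCRC1) and all 3 on the X chromosome (NDUFA1, NDUFB11 and COX7B) fell, and the medians of all genes there were -0.76 and -0.69. On chromosome 20, where the U87 median was -0.55, the 1 member, ATP5F1E, rose. On chromosome 7, where it was -0.46, 4 of 5 members had positive values and 0 fell. The part of these regional differences in the members' values was not tested.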

How the data were processed

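Total RNA was extracted with Trizol and mRNA libraries were made with a VAHTS V2 kit. The authors deposited 1 table of TPM (length-corrected transcript shares) per cell line, on GRCh38. The submitters' processing notes name FastQC 0.11.2, Trimmomatic 0.36, HISAT2 2.0 and bedtools 2.26.0. The quantifier, annotation and strand setting are not given in the sources used here. TPM keeps no depth, so no counting error can be given. Each library's TPM summed to about the same total, and raising 1 class of transcripts lowers the rest.

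Groups were taken from the sample labels. Members were matched by gene symbol to Ensembl identifiers, and 57392 of 58174 identifiers had a symbol. Coordinates are from GENCODE release 29. Noncoding genes and pseudogenes that matched the symbol rule (67) were left out, and 17 members overlap another coding gene on the same strand. Genes at 1 TPM or more in at least 3 libraries were fitted as log2(TPM + 1) with limma 3.58.1 (eBayes with trend, R 4.3.3), separately in each line, with Benjamini-Hochberg adjustment over all genes fitted. The difference between the lines was the interaction over 12 libraries. No exact permutation p is given, since 0.1 is the smallest two-sided value that 3 against 3 libraries allow. On simulated data, 183 (91.5%), 155 (77.5%) and 157 (78.5%) of 200 genes changed by 2 on the log2 scale were called in U87, in U118 and in the interaction, over 13845, 15527 and 16382 genes. The interaction was called by the adjusted p alone, and false calls were 4, 4 and 12. Noise was drawn independently for each library. No member changed by 2 within a line (-1.97 to 1.55), so these shares do not give the recovery of changes of the members' size.

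Named were the called members of complexes II and III, the 3 largest rises and falls in complexes I, IV and V per line, the SDH genes, paralogs of 1 position, NDUFA4, NDUFAB1, ATP5IF1, the hypoxia-responsive genes, 4 regulators and the 3 largest differences between lines each way; other names were chosen after their values were seen. Members and lists were chosen with earlier results of these data known. Alternatives were the pseudocount, the filter, median-ratio scaling, TPM without mitochondrially encoded genes, a replicate block, no eBayes trend, removal of length and GC trends, and each library left out. Tables and figures were made with Python 3.11.15, pandas 2.3.3, numpy 2.4.6 and matplotlib 3.10.9.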

Additional observations from a re-analysis of the deposited data

Results flagged for a closer look

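The members below had a change in U118 that differed from that in U87 by the interaction test (limma, adjusted p under 0.05). Only members named by the rule above are listed, out of the 27 and 7 that differed upward and downward. In complex III, which is not in the list, CYC1 (1.11, adjusted p = 0.0125) and UQCRC1 (1.10, adjusted p = 0.00448) also passed. Values are the log2 fold change in U118 minus that in U87. In complex V the differences were 2.05 for ATP5MC1, 1.59 for ATP5MC3, 1.35 for ATP5MJ, 1.05 for ATP5F1C, 1.04 for ATP5IF1 and -1.18 for ATP5F1E. In complex IV they were 1.71 for COX7B, 1.30 for COX6A1, 1.16 for COX4I1, 1.12 for COX5A, 0.92 for COX8A and 0.56 for COX7A2L. In complex I they were 1.87 for NDUFA1, 1.26 for NDUFA2, 1.16 for NDUFS8, 0.75 for NDUFB4, -0.94 for NDUFA10, -1.17 for NDUFA13 and -1.52 for NDUFC2. ATP5F1C, COX7A2L and NDUFB4 were not past the threshold in 8, 8 and 3 of the 12 fits with 1 library left out, with adjusted p-values as high as 0.0829, 0.0878 and 0.0616. All of these rest on U118 resistant libraries that were nearer to U87 than to U118 sensitive cells.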

How the results depend on the processing

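With median-ratio scaling, 1 member was called higher and 0 lower in U87, 31 higher in U118, and 41 and 3 differed upward and downward between the lines. The medians of complexes I to V were then 0.27, -0.42, 0.49, 0.22 and -0.0326 in U87 and 0.67, 0.0737, 0.83, 1.15 and 0.78 in U118. Without mitochondrially encoded genes in the TPM total, 0 were called lower in U87 and 14 higher in U118, and the U87 medians were 0.14, -0.54, 0.37, 0.10 and -0.16. With no fold threshold the counts were 10 higher and 26 lower in U87 and 18 and 6 in U118. With no filter on low values, 0 were called lower in U118 and 4 differed downward; with length and GC trends removed 5 were called lower in U118 and the U87 complex I median was -0.0267. Without both U118 sensitive replicate 3 and U118 resistant replicate 1, chosen after seeing the data, 2 were called higher and 6 lower in U118, 20 differed downward, and the U118 medians of complexes I, III and IV were -0.28, -0.0664 and 0.19. The U118 median of all genes was -0.66 in this fit, against -0.52 in the main fit, so these complexes stayed above it. The differences between the lines of COX6B1 (-0.36), NDUFA4 (-0.43), NDUFAB1 (-0.50) and UQCRH (-0.46) then turned negative and passed the threshold. Over all genes tested the median difference between the lines was also lower in this fit, at -0.36 against -0.24 in the main fit. The shares of all genes called or past the threshold were not taken in it. The cause of these changes was not tested.

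With 1 library left out, U87 had 0 called higher and 1 to 3 lower, U118 had 3 to 12 higher and 2 to 4 lower, and 20 to 26 and 3 to 12 members differed upward and downward. The medians of complexes I to V ranged over -0.0490 to 0.0316, -0.83 to -0.55, 0.12 to 0.24, -0.11 to 0.01 and -0.38 to -0.25 in U87, and -0.11 to 0.31, -0.62 to -0.33, 0.07 to 0.42, 0.29 to 0.68 and 0.13 to 0.41 in U118. Over the same fits the median of all genes ranged over -0.30 to -0.16 in U87 and -0.76 to -0.42 in U118.

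The replicate numbers did not pair the libraries in U87. Deviations of same-numbered libraries correlated at 0.011, -0.067 and -0.040 in U87 and 0.139, 0.051 and 0.095 in U118, where each library correlated best with its own number. With the replicate block, 0 members were called higher and 3 lower in U87 and 8 and 3 in U118.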
